A study of Mus musculus with 10 samples.

Results

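Interferon response genes were examined as a group of 39 mouse genes taken from a fixed list of symbols, comprising 9 transcription factors, 4 receptor subunits, 3 sensors of viral RNA, the ligand gene Ifnb1 and 22 genes known to be induced by interferon. All 39 were found in the annotation. Of 153924 accessible sites in the pooled list of the study, 224 lay at, in or within 20 kb of these genes.

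Cells that sense viral RNA make interferon, and interferon acts back on the same and on neighbouring cells. The sensors RIG-I (Ddx58), MDA5 (Ifih1) and TLR3 signal through the factors IRF3 and IRF7 to the gene of interferon beta. Interferon binds its receptor subunits and activates complexes of STAT2 and IRF9, which recognize the interferon-stimulated response element (ISRE) in target promoters, while the gamma-activated site (GAS) is known from the response to interferon gamma. Fibroblasts are a classical cell type for this response.

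ATAC-seq, in which the Tn5 transposase cuts open chromatin and the fragments are sequenced, was performed on immortalized mouse embryo fibroblasts (iMEF). All cells shared a deletion of exon 4 of endogenous Ash2l and a lentiviral human ASH2L carrying the degradable FKBP12 domain of variant F36V, on which they depended. ASH2L belongs to the enzyme complexes that place methyl marks on histone H3 at promoters, and the PROTAC dTAG-13 links the fusion to the ubiquitin ligase subunit Cereblon, which leads to its degradation. The 10 libraries were 2 each of cells labelled as not treated with dTAG, and of cells under dTAG for 30 min, for 4 h, for 8 h or for 24 h. By the study's methods the control cells received solvent and the line was a single clone, so that features of this clone cannot be told apart from those of iMEF cells. No group received interferon or virus as far as the labels say.

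The list joins all libraries and holds positions alone. Neither counts nor scores nor values of single libraries stand in it, so that the depth is unknown, changes after dTAG-13 could not be measured, and no replicate error or test belongs to the values below. A site in the list was called in at least some of the material, and a gene without one may still be accessible below the threshold of the peak caller. The labelled cell type was checked with marker genes: a promoter site was listed for 11 of 12 fibroblast genes, among them Col1a1 and Pdgfra but not Lum, whereas Ptprc, the common leukocyte antigen, had none. Of 8 epithelial and endothelial genes, 5 had a promoter site, the first in the list being Epcam, and the first without was Krt5. These shares were 91.7% of the fibroblast genes and 62.5% of the epithelial and endothelial genes, compared with 70.8% of all protein-coding genes. Lists this short give only a weak check of the label.

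The sequences that matter most are those of the response elements. The ISRE was searched as GAAANNGAAA and the GAS as TTCNNNGAA, with N for any base, on both strands and with overlapping matches kept, from 500 bases before to 100 bases after the outermost 5′ end of each gene. Below are stretches of the RefSeq copy of GRCm38 (mm10), read in the direction of the gene, with the matches in capitals. Irf2 and Stat2 are the first genes in the list whose match lay inside a listed site, Ifit1 has several matches inside its site, and Ifit3 has several next to its site.

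Irf2: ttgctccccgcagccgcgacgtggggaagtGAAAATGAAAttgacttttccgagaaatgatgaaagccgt
Stat2: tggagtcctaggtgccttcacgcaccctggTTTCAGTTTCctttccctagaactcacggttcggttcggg
Ifit1: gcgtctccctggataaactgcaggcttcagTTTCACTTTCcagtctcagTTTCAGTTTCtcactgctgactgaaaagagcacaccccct
Ifit3: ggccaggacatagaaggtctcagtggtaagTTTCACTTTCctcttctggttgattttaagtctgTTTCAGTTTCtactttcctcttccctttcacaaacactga

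These stretches are at chr8:46739474-46739543 (plus strand), chr10:128270246-128270315 (plus strand), chr19:34640755-34640843 (plus strand) and chr19:34583343-34583446 (plus strand). The bases from the Irf2 promoter overlap an annotated transcript of the opposite strand, Gm16675. The next 4 belong to the members that had an ISRE but no listed site at the promoter. Of these, Isg15 follows the rule for named genes, and the 3 Oas stretches were chosen after their values were seen.

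Isg15: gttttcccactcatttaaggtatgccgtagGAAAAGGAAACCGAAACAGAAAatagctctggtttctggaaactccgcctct
Oas1a: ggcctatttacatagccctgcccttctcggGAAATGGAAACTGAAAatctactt
Oas2: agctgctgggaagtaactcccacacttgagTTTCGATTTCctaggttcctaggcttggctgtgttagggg
Oas3: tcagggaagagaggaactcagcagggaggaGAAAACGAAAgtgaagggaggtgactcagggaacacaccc

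They are at chr4:156200845-156200926 (minus strand), chr5:120907522-120907575 (minus strand), chr5:120749885-120749954 (minus strand) and chr5:120777695-120777764 (minus strand). In Isg15 and Oas1a the matches overlap one another, which gives long capital runs. A GAS match from the promoter of Irf1, also chosen after its values were seen, is shown for contrast. It lies at chr11:53769894-53769962 (plus strand) inside the site at the Irf1 start.

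Irf1: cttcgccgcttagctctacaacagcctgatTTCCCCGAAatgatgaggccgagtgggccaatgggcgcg

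A promoter site was defined as a listed site that overlapped the 1 kb on either side of any annotated start site of the gene by at least 1 bp. Of the 39 members, 35 (89.7%) had one, compared with 70.8% of 21938 protein-coding genes. A site covered the outermost 5′ end itself in 30 members (76.9%), compared with 58.5% of all genes. All 16 sensors, factors and receptors had a promoter site, as did Ifnb1, and 18 of 22 induced genes (81.8%) did. The 4 members without were Isg15, Oas1a, Oas2 and Oas3. Only 1 member, Oas1a, had no site within 20 kb of its body (2.56%), compared with 12.4% of all genes.

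**Figure D1:**
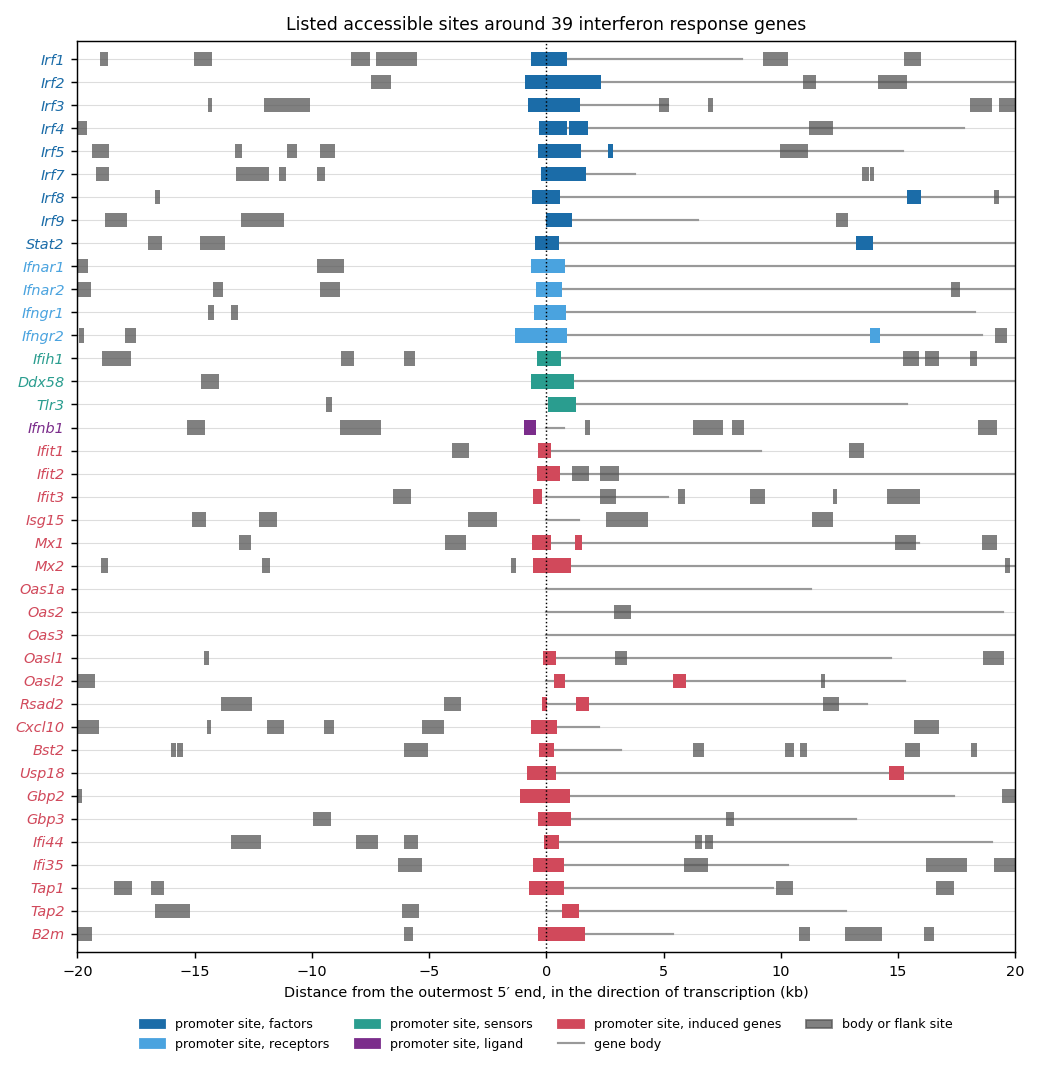
Listed sites from 20 kb before to 20 kb after the outermost 5′ end (x axis, kb) of each of the 39 genes, 1 gene per row. Coloured bars are promoter sites by role, grey bars are body or flank sites, and thin grey lines are gene bodies. Of the 39 rows, 35 hold a coloured bar, and the rows of Oas1a and Oas3 hold no bar.

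The groups differed in the CpG content of their promoters. CpG content was expressed as the observed to expected CpG ratio, that is the number of CpG dinucleotides relative to the number that the C and G content would give, over 1 kb on either side of the 5′ end. The median ratio was 0.57 for the 16 sensors, factors and receptors, with a range of 0.24 to 0.74, and 0.22 for the 22 induced genes, with a range of 0.06 to 0.52. The median over all protein-coding genes, 0.47, lay between them. The ratios of the groups overlapped, since Irf7, Irf9 and Tlr3 had ratios of 0.26, 0.27 and 0.24, whereas Tap1, B2m and Usp18 reached 0.52, 0.51 and 0.49.

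A promoter was called CpG-rich when any 500 bp within this window had a GC content of at least 0.55 and a ratio of at least 0.75, CpG-poor when none reached a ratio of 0.48, and intermediate otherwise. Of the 39 members 11 were CpG-rich (28.2%), compared with 49.1% of all genes. All 11 were sensors, factors or receptors, namely Irf1, Irf2, Irf3, Irf5, Irf8, Stat2, the receptor subunits Ifnar1, Ifnar2, Ifngr1 and Ifngr2, and Ifih1. None of the 22 induced genes was CpG-rich, 8 were intermediate (36.4%) and 14 were CpG-poor (63.6%). Over all protein-coding genes 18.9% were intermediate and 32.0% were CpG-poor. A CpG island computed from the genome lay within 1 kb of the start in 10 of the 16 (62.5%) and in 2 of the 22 (9.09%), which were Usp18 and Tap1, compared with 52.0% of all genes.

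**Figure D2:**
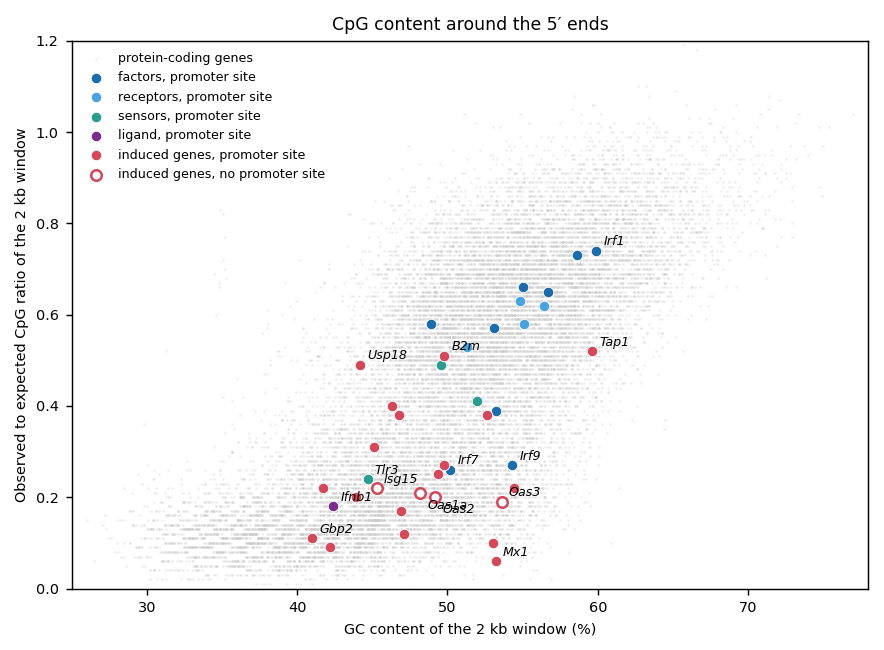
Observed to expected CpG ratio (y axis) against GC content in percent (x axis), both over 1 kb on either side of the 5′ end. Small grey points are protein-coding genes, coloured points are the 39 members by role, filled where a promoter site was listed and open where not. The 4 open circles, Isg15 and 3 Oas genes, have ratios of 0.19 to 0.22 and lie among filled circles.

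All 11 CpG-rich members had a promoter site, as did 96.5% of CpG-rich protein-coding genes. Among promoters that were not CpG-rich, 24 of 28 members (85.7%) had one, compared with 46.0% of all genes. Split further, all 12 intermediate members had one, compared with 71.5%, and 12 of 16 CpG-poor members (75.0%) had one, compared with 30.8%. The members were chosen by name and not at random, and these shares describe the list.

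The factors came first. Irf1, the factor that relays interferon gamma to GAS and ISRE genes, had a single promoter site of 1537 bp from -670 to +866 relative to its 5′ end. Irf2, which binds the same element and can repress, had the widest promoter site of all members at 3236 bp (chr8:46738811-46742046, from -921 to +2314), and a second of 1276 bp at an internal start site. Irf2 was also the longest member at 108 kb, and its body held 10 further sites.

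Irf3, which is kept inactive in the cytoplasm until sensors signal, had a site of 2226 bp, the second widest, and that site also covered a start of the divergent gene Bcl2l12. Irf5 had sites of 1820 and 231 bp, and Irf8, a factor of myeloid cells, sites of 1200 and 600 bp, the shorter one at an internal start site. Irf4, known mainly from lymphocytes, had an intermediate promoter with sites of 1191 and 799 bp. Both of these factors, which are best known from blood cells, had a site over the 5′ end in the pooled list, as did 58.5% of all protein-coding genes. A promoter site was listed for 96.5% of CpG-rich genes, the class of Irf8, and for 71.5% of intermediate genes, the class of Irf4.

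Irf7, the factor that amplifies interferon production, had an intermediate promoter with a ratio of 0.26 and a site of 1930 bp. Irf9, the DNA-binding subunit of the interferon-stimulated complex with STAT2, was the CpG-poor factor, with a ratio of 0.27. Its site of 1135 bp began 22 bp before the 5′ end and ran to +1112, so that it lay almost wholly within the gene. Stat2 had a CpG-rich promoter with a site of 1032 bp, the narrowest among the 16 sensors, factors and receptors, and a second site of 691 bp at an internal start.

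The receptor subunits, which span the cell membrane and bind the ligands, had CpG ratios from 0.53 to 0.63. The subunits of the type I receptor, Ifnar1 and Ifnar2, had sites of 1435 and 1089 bp. Those of the interferon gamma receptor, Ifngr1 and Ifngr2, had sites of 1361 and 2219 bp, the latter the third widest of all members. Ifnar2, Ifnar1 and Ifngr2 lie in a row on chromosome 16, with 112 and 61.8 kb between their 5′ ends, and each had a site over its own 5′ end.

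Among the sensors, Ddx58 had an intermediate promoter with a site of 1846 bp and Ifih1 a CpG-rich promoter with a site of 1053 bp. Tlr3, an endosomal receptor of double-stranded RNA, had a site of 1207 bp that began 62 bp inside the gene and did not cover the outermost 5′ end. The body of Ifih1 held 6 sites between 205 and 703 bp wide, more than any member but Irf2.

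Ifnb1, the gene of interferon beta, is CpG-poor with a ratio of 0.18. Its site of 527 bp lay upstream, from -957 to -431, and left the 5′ end uncovered. It was the member with a promoter site farthest from a start, at 431 bp. The member nearest beyond the limit of 1 kb was Isg15, whose nearest site was 2115 bp away.

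Of the induced genes the Ifit family, which encodes proteins that bind foreign RNA, lies in a row on chromosome 19. Ifit2 had an intermediate promoter with a ratio of 0.31 and a site of 1007 bp over its 5′ end. Ifit1 had a ratio of 0.12 and a site of 530 bp from -343 to +186, which holds both of its ISRE matches and also covers a start of the related gene Ifit1bl2. Ifit3 had a ratio of 0.09 and the narrowest widest site of all members, 397 bp from -571 to -175. Its ISRE matches at -158 and -124 lay 17 and 51 bp beyond the edge of that site.

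Ifit3 has a near-identical neighbour, Ifit3b, for which the list gave a promoter site of 1529 bp. Of the 31-base words in the 2 kb around the Ifit3 start, 36.1% occurred once in the genome, the lowest value of all members, where the median was 97.4%. Reads that match several places are commonly removed before peaks are called, and the part of this in the width of the Ifit3 site was not tested.

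The Oas genes, which encode sensors that make oligoadenylate and activate RNase L, differed within the family. Oas1a, Oas2 and Oas3 on chromosome 5 had no promoter site, with ratios of 0.21, 0.20 and 0.19. The site nearest to the 5′ end of Oas2 was one of 744 bp within its body (chr5:120746240-120746983), 2870 bp downstream. The same site was the nearest to Oas3, at 30.7 kb from its outermost and 9276 bp from its closest annotated start. The nearest site to Oas1a, of 475 bp, was 102 kb away and lay at a start of the neighbouring gene Rph3a.

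No site was listed over 262 kb between these sites (chr5:120746984-121009365). This stretch held the 5′ ends of 9 protein-coding genes, all of the Oas family. Only 0.372% of 153661 gaps between neighbouring sites were at least as long, and the median gap was 7.15 kb, although 8.98% of protein-coding genes had their 5′ end in a gap of this length or more. The 31-base words of the stretch were unique for 81.1%, and those of the 2 kb around the 5′ end for 71.1% in Oas1a, 93.5% in Oas3 and 100% in Oas2. The part of repeated sequence in the missing Oas sites was not tested.

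**Figure D3:**
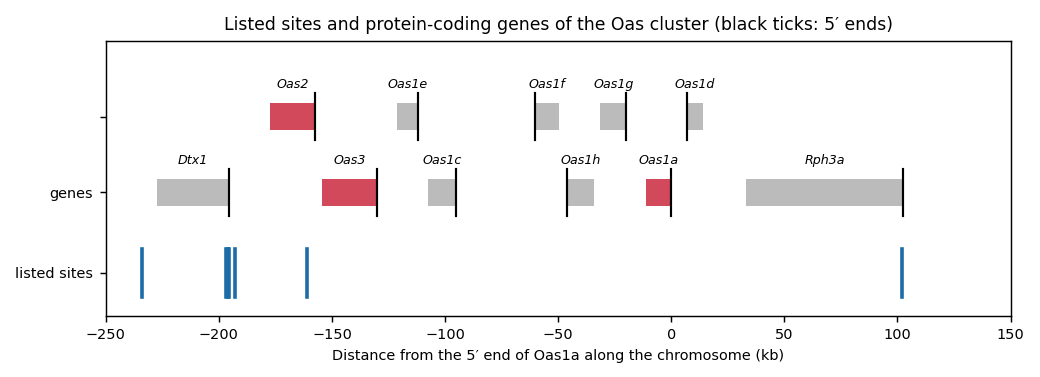
Listed sites (blue ticks) and protein-coding genes (bars, the 3 members in red, black ticks at the 5′ ends) by distance in kb from the 5′ end of Oas1a along the chromosome. Between the blue tick in Oas2 and that at Rph3a, 102 kb beyond Oas1a, no site is drawn.

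The related Oasl genes on the same chromosome, 26.3 kb apart, did have sites. Oasl1 had an intermediate promoter with a ratio of 0.40 and a site of 536 bp from -133 to +402. Oasl2 had a ratio of 0.27 and sites of 479 and 542 bp, both inside the gene, with none over its outermost 5′ end. In Oasl1 the ISRE match at -273 lay 131 bp outside the site.

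Isg15, the ubiquitin-like modifier that interferon induces, had a ratio of 0.22 and 3 overlapping ISRE matches starting at -78, -72 and -66, printed above. No site was listed in 4.66 kb around its start, and the nearest, of 1236 bp, lay at the neighbouring gene AW011738. Another of 1809 bp on the other side lay within 1 kb of a start of Agrn. Of the words around the Isg15 start, 89.9% were unique.

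The Mx genes on chromosome 16 encode antiviral GTPases. Mx1 had the lowest CpG ratio of all members, 0.06, and sites of 787 and 306 bp, the wider one over its 5′ end. Mx2, annotated as a polymorphic pseudogene and therefore no part of the protein-coding background, had a ratio of 0.10 and a site of 1621 bp. The widths of the pair differed although both were CpG-poor.

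The guanylate-binding proteins, GTPases that act on intracellular pathogens, had wide sites for CpG-poor promoters. Gbp2 had a ratio of 0.11 and a site of 2131 bp (chr3:142619466-142621596), and Gbp3, 60.6 kb away, a ratio of 0.20 and a site of 1429 bp. The median over CpG-poor protein-coding genes with a promoter site was 945 bp.

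The genes of antigen presentation were also among the members. Tap1, a subunit of the peptide transporter, had a ratio of 0.52 and a site of 1488 bp that also covered a start of the proteasome gene Psmb9, with which it shares its promoter region. Tap2, a neighbour on the same chromosome, had a ratio of 0.22 and a site of 737 bp from +663 to +1399, which left its outermost 5′ end uncovered. B2m, the light chain of class I molecules, had a ratio of 0.51 and a site of 1989 bp.

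The other induced genes each had a site over the 5′ end. Rsad2, which encodes viperin, had a ratio of 0.17 and sites of 253 bp over the 5′ end and 547 bp within the gene. Ifi44 had a ratio of 0.22 and a site of 647 bp, and Ifi35 a ratio of 0.25 and a site of 1316 bp. All of these were CpG-poor.

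The remaining induced genes were intermediate. Cxcl10, a chemokine that attracts T cells, had a ratio of 0.38 and a site of 1126 bp. Bst2, which tethers budding virions, had the same ratio and a site of 654 bp, and its 8 flank sites were the most of any member. Usp18, the protease that removes ISG15 and damps receptor signalling, had sites of 1208 and 631 bp, the narrower one at an internal start.

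**Figure D4:**
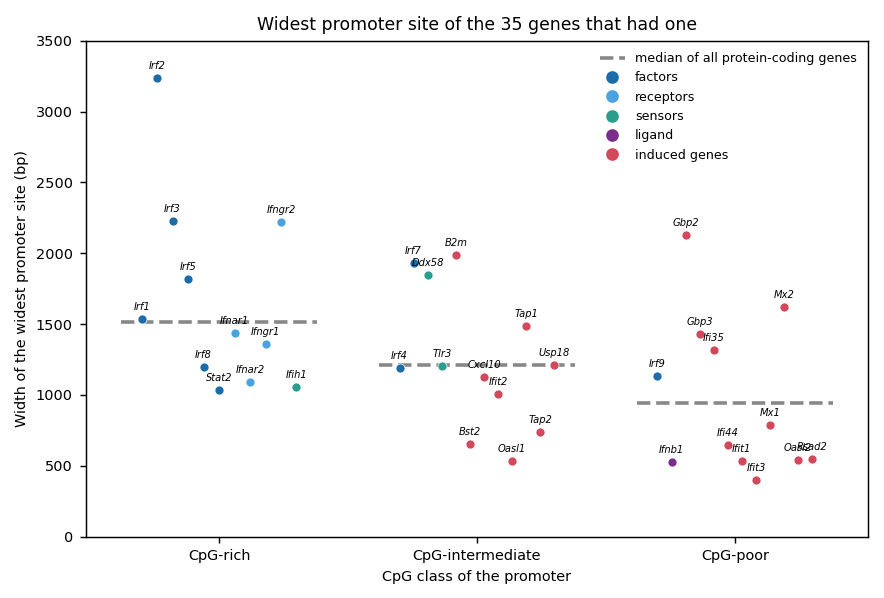
Width in bp (y axis) of the widest promoter site of each of the 35 genes that had one, by CpG class (x axis) and coloured by role. Dashed lines are the medians of all protein-coding genes of the class, 1518, 1210 and 945 bp. Irf2 at 3236 bp is the highest point and Ifit3 at 397 bp the lowest.

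Taking the widest promoter site of each gene, the median was 1200 bp over 35 members, 1398 bp over the 16 sensors, factors and receptors and 897 bp over 18 induced genes, compared with 1412 bp over all protein-coding genes with a promoter site. The widths overlapped between 1032 and 2131 bp. By CpG class the median was 1435 bp for CpG-rich members, where all genes gave 1518 bp, 1199 bp for intermediate members, where all genes gave 1210 bp, and 717 bp for CpG-poor members, where all genes gave 945 bp. The site list gives width only, and width also depends on the depth and the peak caller.

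The ISRE was common in these promoters. A match was found in 19 of 39 members (48.7%), compared with 7.48% of protein-coding genes. They were 15 of 22 induced genes (68.2%) and 4 of the 16 sensors, factors and receptors, which were Irf2, Stat2, Ifih1 and Ddx58. Of 29 matches 24 began within the 300 bases before the 5′ end, and 8 genes, all of them induced genes, had at least 2. In 4 of these, Isg15, Oas1a, Bst2 and Gbp3, matches overlapped, and each was counted. A GAS match was found in 11 members (28.2%), compared with 17.0% of protein-coding genes, including Irf1, Irf8 and the receptor subunits Ifnar1 and Ifnar2. A match describes the letters, and the absence of one says only that these letters are not in the window.

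Of the 19 genes with an ISRE, 13 (68.4%) had a match inside a listed site, compared with 42.1% of 1640 protein-coding genes with one. Among CpG-poor genes the numbers were 5 of 10 members, compared with 9.76% of 625 genes. The 6 members with none inside were Ifit3, Isg15, Oas1a, Oas2, Oas3 and Oasl1, all of them induced genes. In all 4 sensors and factors with an ISRE the match was inside the site, at -228 in Irf2, -283 in Stat2, +32 in Ifih1 and +5 in Ddx58. Irf2, Stat2 and Ifih1 are CpG-rich, a class in which 73.5% of 667 protein-coding genes with an ISRE had a match inside a site. The share was 40.2% of 348 intermediate genes, the class of Ddx58.

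**Figure D5:**
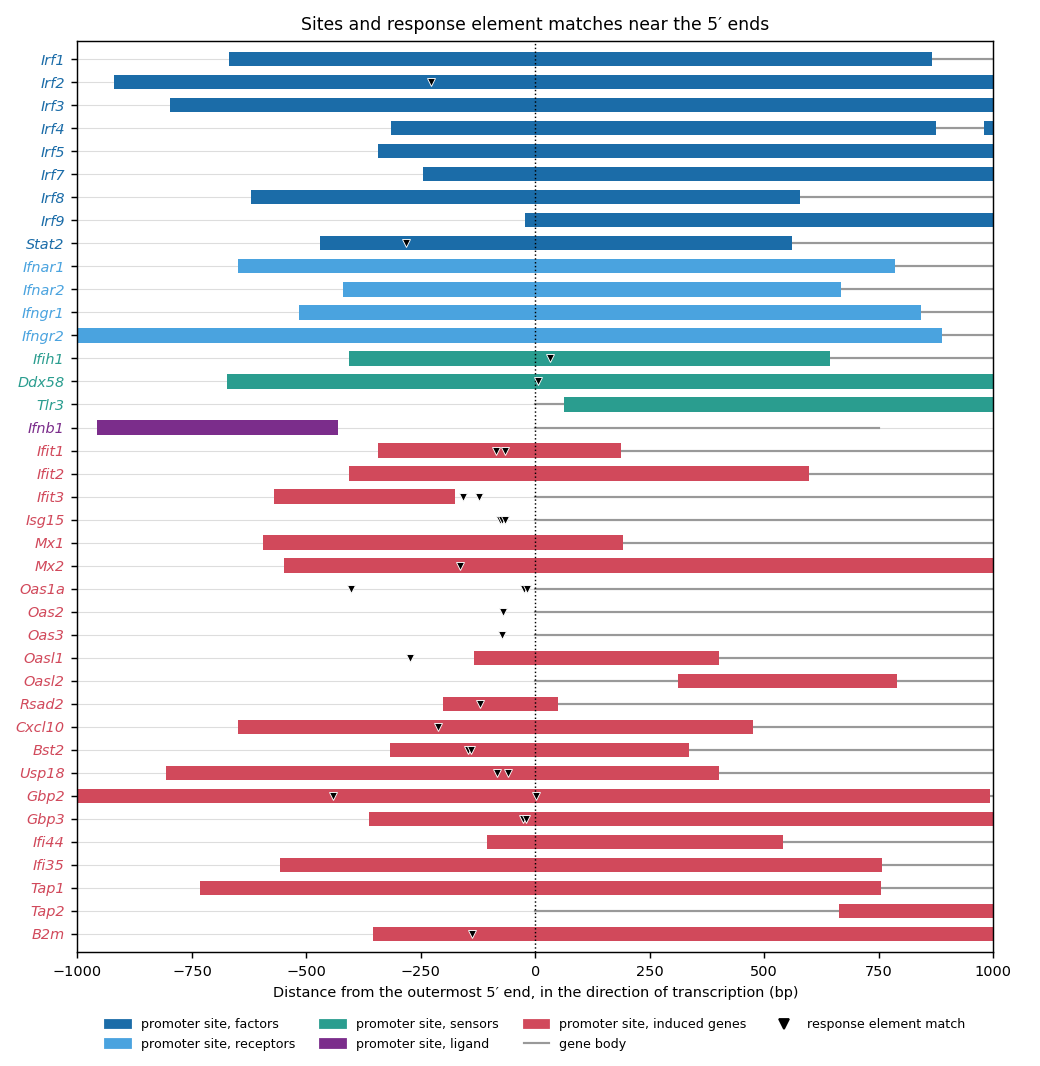
The 1000 bp on either side of the outermost 5′ end (x axis, bp), 1 gene per row, with promoter sites as bars coloured by role, gene bodies as thin grey lines and the starts of ISRE matches as black triangles. In 13 genes a triangle lies on a bar, and in 6, among them Ifit3 and Isg15, none does.

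Counted over sites instead of genes, 19 of 45 promoter sites of the members held an ISRE (42.2%), compared with 11.6% of 26427 promoter sites in the list. The share was 27.3% of 22 sites of sensors, factors and receptors, with a mean width of 1343 bp, and 59.1% of 22 sites of induced genes, with a mean width of 926 bp. Among the distal sites of the members 11 of 131 (8.40%) held one, compared with 9.08% of 127255 distal sites in the list.

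Beyond the promoters, 38 sites lay in gene bodies, and 31 of these had their middle in an intron. They were found in 19 of the 39 members (48.7%), compared with 52.7% of all protein-coding genes with a body site. The 38 sites came to 0.541 sites per 10 kb of body, compared with 0.606 for all protein-coding genes. Irf2 had 10 body sites and 1 flank site and Ifih1 had 6 and 4, the most of all members, followed by Ifnar2, Ifit2 and Bst2 with 8 each in body and flank together. In the flanks of 20 kb, 149 different sites were listed, of which 44 lay within 1 kb of a start of another protein-coding gene and may belong to that gene. The median number of flank sites was 4 for the members and 3 for all genes.

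Further genes of the pathway, from lists that were drawn up by function, were counted in the same way. These lists were also chosen with earlier results of these data known, so they are no independent check of the members. Of 22 other signalling genes all had a promoter site, for example the kinase Jak1 with a site of 1258 bp, and 14 were CpG-rich. Of 44 other induced genes 36 (81.8%) had one, the first in the list being Ifi27 with a site of 1322 bp, and 6 were CpG-rich. The first induced gene without a site was Ifi27l2a. Over all protein-coding genes 70.8% had a promoter site, 96.5% of those that were CpG-rich and 46.0% of those that were not. Among promoters that were not CpG-rich, 8 of 8 other signalling genes and 30 of 38 other induced genes had one. The median CpG ratio was 0.65 for the other signalling genes and 0.23 for the other induced genes. Of the other Oas genes listed, Oas1b and Oas1g, neither had a promoter site.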

How the data were processed

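ATAC-seq was performed on 10 libraries of iMEF cells in 5 groups of 2. According to their methods, the authors used Trim Galore for trimming, BWA for alignment to mm10, SAMtools for filtering by ENCODE recommendations, Picard for merging and MACS for narrow peaks. Versions, thresholds, a shift for the Tn5 cut and the joining of samples are not given in the sources used here, and each can alter the number and width of sites. The deposited table, made by the authors, lists positions only, which have no unit of measurement, and no column per sample. Starts were read as counted from 0 and are printed counted from 1.

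Start sites were taken from GENCODE M21 and sequence from RefSeq GRCm38, on whose chromosomes 153682 sites lay and 0 sites ran past an end. Promoter sites, body sites (overlapping the gene, not at the promoter) and flank sites (within 20 kb) were counted for each gene. CpG islands were segments of at least 200 bp with GC over 0.5 and a ratio over 0.6. No test was made, since a pooled list has no replicates, and all shares stand beside those of protein-coding genes. The members and all gene lists were chosen with earlier results of these data known. Values were given for each member without a promoter site or with one that is not CpG-rich, the 3 widest and 3 narrowest sites, the 3 genes with most body and flank sites, shared promoters and gene clusters. Other lists were given as counts with at most 4 examples, and the count over a list of immune cell markers is not reported here. Alternatives were other windows, start sites, widths, merging, groupings and motif forms. Computations were checked on simulated sites and sequences and used Python 3.11.15, NumPy 2.4.6, SciPy 1.17.1, pysam 0.24.0, Numba 0.67.0 and Matplotlib 3.10.9.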

Additional observations from a re-analysis of the deposited data

How the results depend on the processing

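Of the 48 recomputed values 41 stayed within 1.5 times the count, or inside the order-statistic interval of the median, and 7 moved. When Irf1, Irf7, Irf9, Stat2, Ifih1 and Ddx58, which interferon also induces, were counted with the induced genes, 10 of 10 sensors, factors and receptors and 24 of 28 induced genes had a promoter site. The median CpG ratio of the sensors, factors and receptors was 0.67 over a window of 500 bp on either side. With a ratio of at least 0.6 and a GC content of at least 0.5 over the whole window, 6 members were CpG-rich. When sites under the median width of 619 bp were left out, 18 body and 84 flank sites remained and Ifnb1, Ifit1, Ifit3, Oasl1, Oasl2 and Rsad2 also lost their promoter site. Flanks of 10 and 50 kb held 70 and 367 sites. The number of members with a promoter site ran from 29 with wide sites only, where 65.5% of all genes had one, to 37 in a window of 3 kb, where 76.4% had one and Isg15 and Oas2 gained a site, and was 35 with RefSeq start sites, an alternative chosen after seeing the data. No paired analysis was possible because positions without values carry no replicates. Depth and the weakest site that could be called are unknown.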
